A study of Mus musculus with 6 samples.

Results

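Zfp57 encodes a zinc finger protein that binds imprinted regions, and it was examined in mouse aorta together with its partners Trim28 and Zfp445 and with 30 imprinted coding genes. These 33 genes were taken by name from the 18191 genes of the expression table, and all 33 were in it. Zfp57 was chosen on its level in these same libraries, which differed between the genotypes, so that difference is described here without a test. The question was whether higher Zfp57 came with lower or with higher imprinted genes.

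RNA of whole aortas from males was sequenced, with 3 libraries of wild type (WT) and 3 of Npr1+/- mice. The Npr1+/- mice are heterozygous for a knockout, made by CRISPR-Cas9, of Npr1, the receptor for atrial and brain natriuretic peptides. The age of the mice and the number of animals per library are not given in the sources used here. The labels name the libraries of a genotype as separate samples and do not say that each came from its own mouse, so that p-values measure the spread between these samples.

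The libraries held 13510970 to 16664343 estimated counts on genes, and 3 counts corresponded to 0.185 to 0.219 CPM, the counts scaled to library size. Npr1 was at 112, 153 and 152 fragments per kilobase of transcript, scaled to library size (FPKM) in WT and at 70.4, 110 and 133 FPKM in Npr1+/-, so its mean was lower in Npr1+/- while the genotypes overlapped. Smooth muscle markers such as Myh11 and Acta2 summed to 13093 to 38699 CPM, as the defining markers of the labelled tissue, and markers of fat, nerve and blood were present too. The library Npr1+/- 1 stood apart with 588 CPM of 11 neuron markers against 78.4 to 97.7 CPM in the other 5 libraries. WT 1 and Npr1+/- 1 held 2795 and 2772 CPM of 6 brown fat markers against 418 to 844 CPM elsewhere.

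Imprinted genes are expressed from the copy inherited from 1 parent, because DNA methylation laid down in the egg or the sperm differs between the copies. ZFP57 recognises a short methylated sequence at these marks in the early embryo and recruits TRIM28, a scaffold protein that brings in silencing enzymes, and ZFP445 acts beside it. Many paternally expressed genes promote growth, and several maternally expressed genes restrain it. RNA levels of a whole tissue give the sum of both copies and do not tell which parental copy was used. In whole aorta, more cells of a type and more RNA per cell cannot be told apart.

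The sequences next to the starts of the genes are shown because the recognition motif of ZFP57, TGCCGC, can be looked for in them. Windows of 250 bases before each annotated start were taken from RefSeq on GRCm38.p6, and 28 of the 33 genes had at least 1. The first window below ends at the first start of Zfp57, at chr17:37000913-37001162 on the plus strand. The second ends at the start of Igf2 nearest to its 3′ end, at chr7:142657497-142657746 on the minus strand. Neither holds the motif, so neither has capitals.
Zfp57: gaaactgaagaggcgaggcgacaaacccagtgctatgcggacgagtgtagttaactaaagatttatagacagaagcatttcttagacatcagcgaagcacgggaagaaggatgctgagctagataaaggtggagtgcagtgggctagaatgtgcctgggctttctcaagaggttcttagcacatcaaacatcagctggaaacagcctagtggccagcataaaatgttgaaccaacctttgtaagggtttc
Igf2: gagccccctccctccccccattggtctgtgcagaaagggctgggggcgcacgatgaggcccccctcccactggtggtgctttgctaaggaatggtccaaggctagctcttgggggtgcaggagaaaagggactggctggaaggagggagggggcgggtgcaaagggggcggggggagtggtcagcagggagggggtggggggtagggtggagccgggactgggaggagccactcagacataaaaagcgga

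The motif was searched as TGCCGC and, for the other strand, as GCGGCA. It occurred in a window of 6 of the 28 genes, 21.4%, and in 5 of the 25 imprinted genes with a window, 20.0%. Among all 14207 genes of the table with a window, 1955 held it, 13.8%, and it was in 8.68% of all 32851 windows. The 6 genes are shown with their sites and the bases around them, with the motif in capitals, at chr10:13090732-13090757 on the plus strand for Plagl1, chr6:30737973-30737998 on the plus strand for the site of Mest nearest to its start, chr6:58907135-58907160 on the minus strand for Nap1l5, chr6:30896895-30896920 on the minus strand for Copg2, chr7:6696437-6696462 on the minus strand for Zim1 and chr7:13024083-13024108 on the plus strand for Trim28. Such a match is a description of the letters, and methylation and binding were not measured.
Plagl1: ggcgtgttgcGCGGCAaagcccacgg
Mest: gaggggcgctGCGGCAggatgggcgg
Nap1l5: gccattcactTGCCGCgagccgcgaa
Copg2: acgcccccgtGCGGCAgtgggcggag
Zim1: aagtcatcccGCGGCAttccactccg
Trim28: taggccaggcTGCCGCtgcagacgtc

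Zfp57 (NCBI gene 22715, chr17:37001163-37010729 on GRCm38) was at 1.00, 1.26 and 0.92 FPKM in WT and at 3.58, 2.74 and 3.33 FPKM in Npr1+/-. Every Npr1+/- library was above every WT library. The means were 1.06 ± 0.178 FPKM in WT and 3.22 ± 0.431 FPKM in Npr1+/- (SD, n = 3 each), and these values rest on 43, 51 and 41 counts in WT and 117, 115 and 126 counts in Npr1+/-. The log2 fold change fitted to the counts was 1.42 ± 0.21 (standard error), or 2.68-fold, and it lay between 1.31 and 1.47 across the fits that left out 1 library each. Zfp57 was a gene of low level even in Npr1+/-.

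For both partners of Zfp57 the genotypes overlapped. Trim28 was at 31.1, 43.9 and 44.0 FPKM in WT and at 30.7, 43.3 and 43.0 FPKM in Npr1+/-. In both genotypes the library numbered 1 was the lowest, and the log2 fold change was -0.02 ± 0.21. Zfp445, which encodes the other zinc finger protein of imprint maintenance, was at 10.9, 12.7 and 9.26 FPKM in WT and at 9.63, 10.2 and 11.6 FPKM in Npr1+/-, and its log2 fold change was -0.05 ± 0.14. Expressed relative to Trim28 in the same library, the FPKM of Zfp57 came to 3.22%, 2.87% and 2.09% in WT and to 11.7%, 6.33% and 7.74% in Npr1+/-. Part of the reads of Zfp445 and Trim28 may belong to the overlapping genes Zkscan7 and Gm31649, since the use of strand in the counting is not given in the sources used here.

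**Figure D1:**
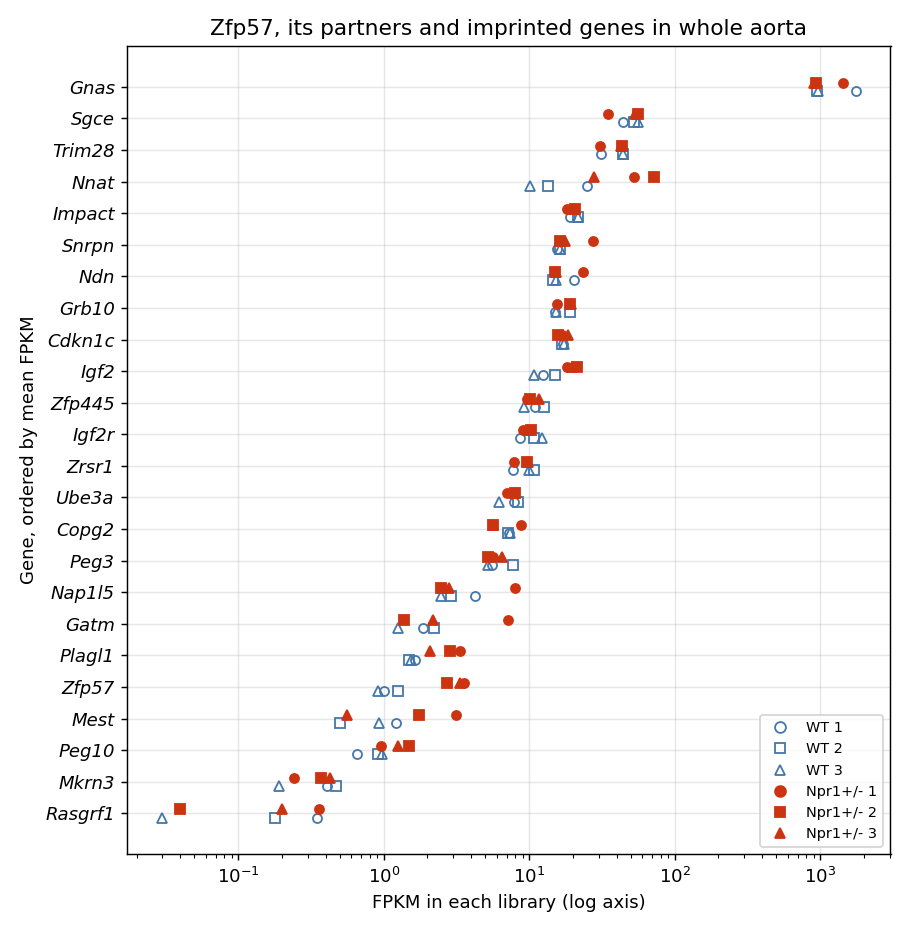
FPKM of the 24 tested genes in the 6 libraries on a log axis, with 1 point per library (circle, square and triangle for replicates 1, 2 and 3) and colours for the genotypes. Zfp57, Igf2, Nnat and Plagl1 are those whose Npr1+/- points all lie above the WT points, and Gnas stands at the top of the scale.

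Of the 33 genes, 24 passed the filter on low counts and were tested, and 9 did not. Zfp57 is left out of the following counts because its difference led to the list, which leaves 23 tested genes. In the edgeR quasi-likelihood test with Benjamini-Hochberg adjustment over 13938 genes, 0 of the 23 passed both thresholds, an adjusted p under 0.05 and a log2 fold change of 0.5 or more in size, where 0% of all tested genes were called. At an unadjusted p under 0.05 were 3 of the 23, Igf2, Nnat and Plagl1, all higher in Npr1+/-, against 2.96% of all tested genes. With the replicate number as a block in edgeR they were 4 of the 23, with Peg10 added, against 12.4% of all tested genes. The lowest adjusted p among the 23 was 0.999 in edgeR and 0.0991 with the block. DESeq2 called 0 of the 23, where it called 0.0942% of all genes, and DESeq2 with the replicate block called 2, Igf2 and Nnat, where it called 1.81%. The other genes were listed with results of this comparison known, so nothing further is read from these counts.

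The libraries of the genotypes did not overlap in CPM for 3 of the 23 genes, Igf2, Nnat and Plagl1, all higher in Npr1+/-, where 3.9% of all tested genes were placed so. None of the 23 was lower in every Npr1+/- library than in every WT library, where 3.58% of all tested genes were. The log2 fold change was at least 0.5 in 6 of the 23, against 8.57% of all tested genes, and at most -0.5 in 0, against 3.7%. It was above 0 in 13 and below 0 in 10, where 51.6% of all tested genes were above 0. Within the replicate numbers, 6 genes were higher in the Npr1+/- library of every number (Igf2, Nnat, Plagl1, Peg10, Snrpn and Grb10), against 17.5% of all tested genes, and 0 were lower in every number, against 16.9%.

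**Figure D2:**
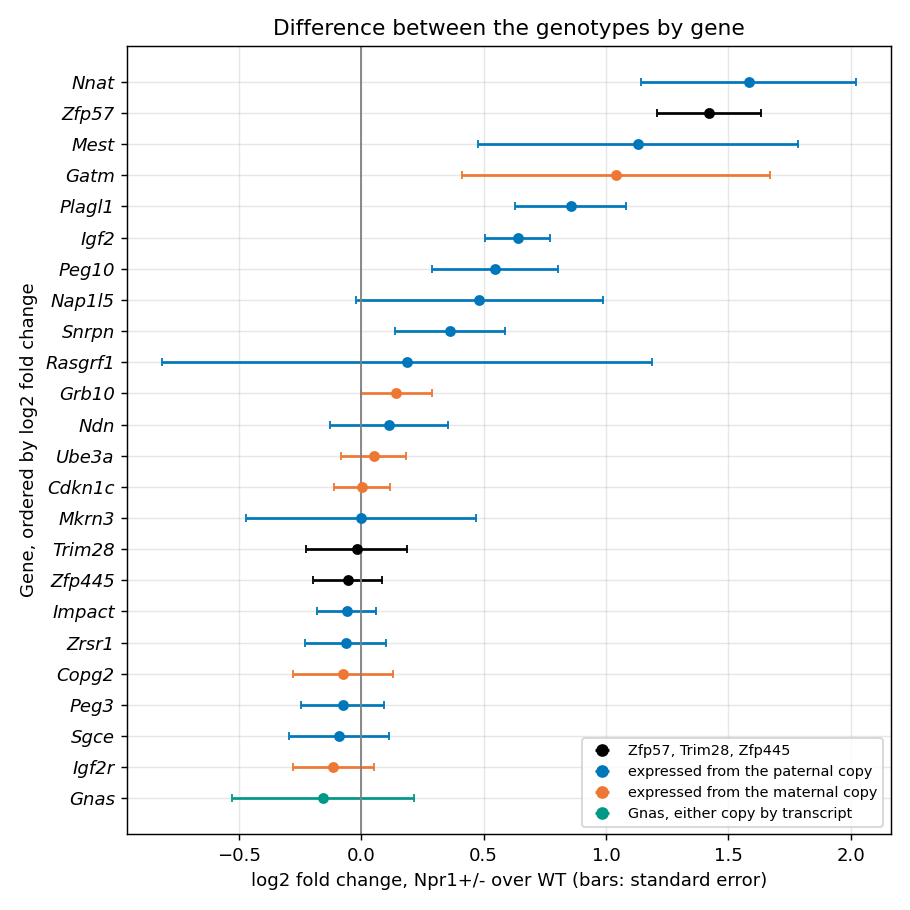
Log2 fold changes of the 24 tested genes, Npr1+/- over WT, from the edgeR fit, with standard errors as bars and the highest at the top. They run from -0.15 in Gnas to 1.58 in Nnat, and most lie within 0.5 of 0.

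The growth factor Igf2 (gene 16002, chr7:142650768-142666816), expressed from the paternal copy, was at 12.4, 15.0 and 10.8 FPKM in WT and at 18.3, 21.4 and 19.6 FPKM in Npr1+/-. All 3 Npr1+/- libraries were above all 3 WT libraries. The means were 12.7 ± 2.12 and 19.8 ± 1.53 FPKM (SD, n = 3 each), and the log2 fold change was 0.64 ± 0.13, between 0.57 and 0.73 without each library in turn. The ratio of CPM between libraries of the same number was 1.63, 1.51 and 1.54.

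Its receptor Igf2r, a maternally expressed gene whose product carries IGF2 to the lysosome, was at 8.70, 10.8 and 12.2 FPKM in WT and at 9.01, 10.3 and 9.86 FPKM in Npr1+/-. The Npr1+/- values all lay within the range of WT, and the log2 fold change was -0.11 ± 0.17. Grb10, which encodes an adaptor that dampens insulin and IGF1 receptor signalling, was at 14.9, 18.98 and 15.2 FPKM in WT and at 15.6, 19.1 and 19.5 FPKM in Npr1+/-, with a log2 fold change of 0.14 ± 0.15. Its genotypes overlapped as well. Cdkn1c, the inhibitor of cyclin-dependent kinases p57, was the steadiest of the growth restraining genes at 17.0, 16.8 and 17.4 FPKM in WT and 16.9, 15.7 and 18.6 FPKM in Npr1+/-, and its log2 fold change was 0.01 ± 0.11.

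Plagl1 (gene 22634, chr10:13090832-13131694) encodes a zinc finger transcription factor that restrains the cell cycle and is expressed from the paternal copy. It was at 1.63, 1.50 and 1.53 FPKM in WT and at 3.37, 2.86 and 2.09 FPKM in Npr1+/-. The WT libraries lay close together, and the Npr1+/- libraries were all above them and spread more widely. The means were 1.55 ± 0.0681 and 2.77 ± 0.644 FPKM (SD, n = 3 each), with a log2 fold change of 0.86 ± 0.23 and a range of 0.66 to 1.04 without each library in turn.

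Nnat (gene 18111, chr2:157560078-157562525) encodes neuronatin, a small membrane protein of the endoplasmic reticulum found in brain and fat. It was at 24.9, 13.45 and 10.2 FPKM in WT and at 52.7, 72.6 and 27.8 FPKM in Npr1+/-. The lowest Npr1+/- library was just above the highest WT library, and both genotypes spread by more than a factor of 2. The means were 16.2 ± 7.74 and 51.0 ± 22.5 FPKM (SD, n = 3 each), and the log2 fold change was 1.58 ± 0.44, between 1.24 and 1.98 without each library in turn. Nnat was highest in Npr1+/- 2, where the 11 neuron markers summed to 83.5 CPM, within the range of WT. Uchl1 alone gave 70.7 CPM of that sum. Stmn2, 1 of the 11, was at 5.18, 4.26 and 5.31 CPM in WT and at 63.5, 9.36 and 7.69 CPM in Npr1+/-. It was the only neuron marker higher without overlap, against 3.9% of all tested genes, and 0 were lower without overlap. The part of neurons in the level of Nnat was not tested. White fat markers summed to 5304, 1056 and 1385 CPM in WT and to 8868, 2831 and 2303 CPM in Npr1+/-, higher in Npr1+/- within every replicate number, and their part in the level of Nnat was not tested. Nnat lies inside Blcap, a gene of the further imprinted list below that was at 28.5, 19.7 and 18.2 FPKM in WT and at 40.4, 22.1 and 18.1 FPKM in Npr1+/-, and reads of the overlap could have been counted for either.

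**Figure D3:**
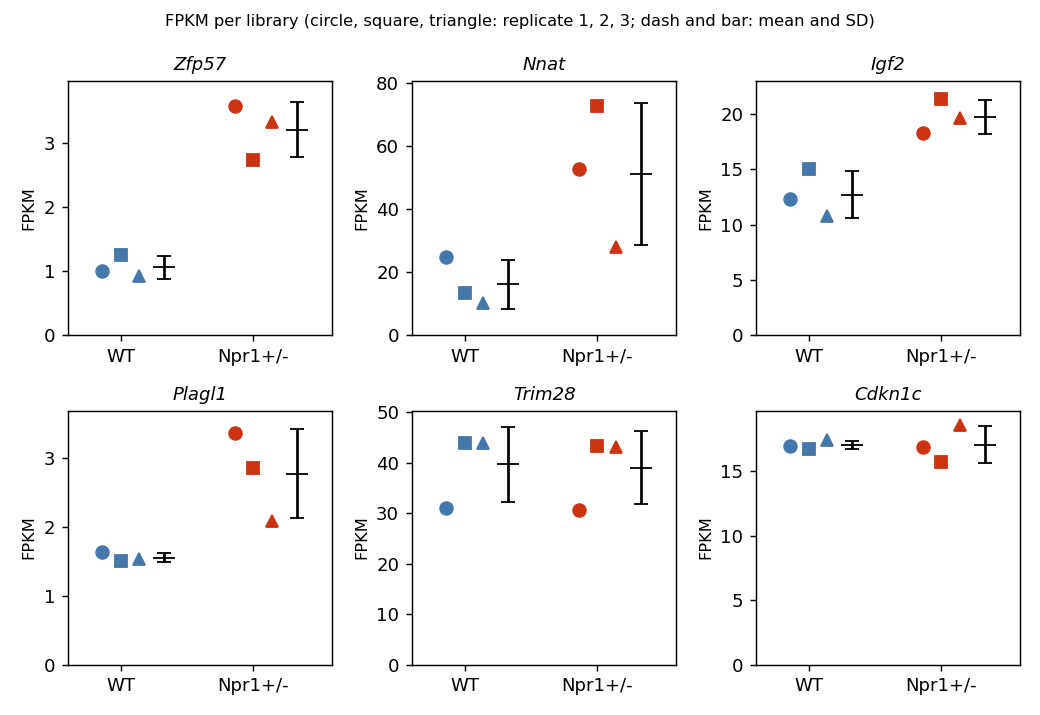
FPKM per library of 6 of the genes in both genotypes, with points for replicates 1, 2 and 3 (circle, square and triangle) and a dash and bar for the mean and SD of 3 libraries. The genotypes are apart for Zfp57, Igf2, Nnat and Plagl1, and overlap for Trim28 and Cdkn1c.

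The order of the libraries in FPKM within a genotype was not the same for all of these genes. Within Npr1+/-, Zfp57 was highest in library 1 and lowest in library 2, whereas Igf2 was highest in library 2 and lowest in library 1. Nnat was highest in library 2 and lowest in library 3, and Plagl1 was highest in library 1 and lowest in library 3. Within WT, Zfp57 and Igf2 were both highest in library 2 and lowest in library 3. This order depends on the scale, since Igf2 in CPM was lowest in WT 1 and Npr1+/- 3. The genotypes do not overlap in Zfp57, so a correlation over the 6 libraries would restate the difference of genotype, and no correlation is given within a genotype of 3 libraries.

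In the tested paternally expressed genes Snrpn, Ndn, Nap1l5, Mest and Rasgrf1 the genotypes overlapped, and Npr1+/- 1 was the highest library. It was the highest also for the tested maternally expressed genes Gatm and Copg2, with overlapping genotypes. Snrpn, which encodes a protein of the spliceosome, was at 15.5, 16.4 and 16.4 FPKM in WT and at 27.3, 16.3 and 17.7 FPKM in Npr1+/-, and its log2 fold change of 0.36 ± 0.22 was 0.05 without Npr1+/- 1. Ndn, encoding the growth suppressor necdin of neurons, was at 20.3, 14.5 and 15.3 FPKM in WT and at 23.5, 15.0 and 15.2 FPKM in Npr1+/-, with a log2 fold change of 0.11 ± 0.24 that was -0.17 without that library. Nap1l5, a gene for a protein of the nucleosome assembly family, had a log2 fold change of 0.48 ± 0.50, which was -0.31 without that library, and was 7.94 FPKM in Npr1+/- 1 against 2.48 to 4.26 FPKM elsewhere. This is the library with the high neuron markers. The markers of Schwann cells, which sheathe nerve fibres, reached 302 CPM there against 75.6 to 114 CPM in the other libraries, and their part in these values was not tested. Reads of Snrpn could be split with Snurf, and those of Nap1l5 with Herc3.

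Mest, which encodes a hydrolase-like protein of mesoderm and growing fat, was at 1.22, 0.50 and 0.93 FPKM in WT and at 3.16, 1.76 and 0.56 FPKM in Npr1+/-. Its Npr1+/- libraries ran from within the WT range to above it, and the log2 fold change of 1.13 ± 0.65 was 0.42 without Npr1+/- 1. The 6 white fat markers were also highest in Npr1+/- 1. Their part in the level of Mest was not tested. Copg2, a coat protein gene that overlaps the end of Mest on the other strand, was at 7.25, 7.15 and 7.41 FPKM in WT and at 8.81, 5.68 and 5.68 FPKM in Npr1+/-, above the WT range in Npr1+/- 1 and below it in the other two, with a log2 fold change of -0.07 ± 0.21 that was -0.34 without Npr1+/- 1.

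Gatm, which encodes the first enzyme of creatine synthesis, is expressed from the maternal copy in placenta. It was at 1.85, 2.22 and 1.25 FPKM in WT and at 7.14, 1.38 and 2.18 FPKM in Npr1+/-. A single library made the difference, since the log2 fold change of 1.04 ± 0.63 became -0.02 without Npr1+/- 1. Peg10, a gene derived from a retrotransposon, was at 0.66, 0.92 and 0.97 FPKM in WT and at 0.96, 1.50 and 1.25 FPKM in Npr1+/-. It was higher in Npr1+/- within each replicate number while the genotypes overlapped, with a log2 fold change of 0.55 ± 0.26. Its neighbour Sgce, the gene for epsilon-sarcoglycan of the muscle membrane, was at 44.3, 52.7 and 55.9 FPKM in WT and at 34.7, 55.6 and 53.0 FPKM in Npr1+/-. Sgce was thus lowest in Npr1+/- 1, where smooth muscle markers were lowest too at 13093 CPM, and their part in its level was not tested. The log2 fold change of Sgce was -0.09 ± 0.20.

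**Figure D4:**
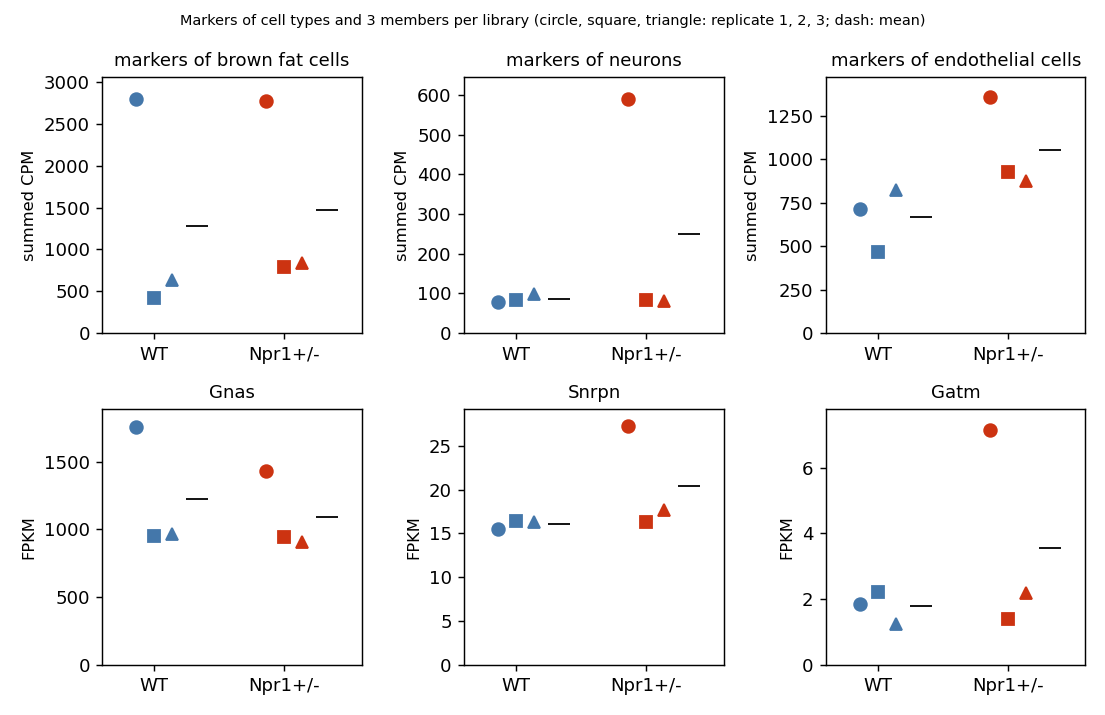
Summed CPM of markers of brown fat cells, neurons and endothelial cells, and FPKM of Gnas, Snrpn and Gatm, per library (circle, square and triangle for replicates 1, 2 and 3; dash for the mean). Brown fat markers and Gnas are high in replicate 1 of both genotypes, and neuron markers, Snrpn and Gatm are high in Npr1+/- 1.

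Gnas, which encodes the stimulatory G protein alpha subunit and other products read from either parental copy, had by far the highest level of the 33 genes, at 1758, 953 and 965 FPKM in WT and 1428, 941 and 905 FPKM in Npr1+/-. The library numbered 1 was the highest in both genotypes, as for the brown fat markers, whose part was not tested. Its log2 fold change was -0.15 ± 0.37, the lowest of the 24, and -0.46 without Npr1+/- 1. Impact, which encodes a regulator of translation under stress, was at 18.9, 21.5 and 21.5 FPKM in WT and at 18.3, 20.6 and 20.4 FPKM in Npr1+/-, with a log2 fold change of -0.06 ± 0.12. Peg3, a zinc finger gene linked to growth and maternal behaviour, was at 5.58, 7.68 and 5.18 FPKM in WT and at 5.60, 5.21 and 6.54 FPKM in Npr1+/-, and its log2 fold change was -0.08 ± 0.17. Both overlapped between the genotypes.

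The remaining 4 tested genes had log2 fold changes within 0.2 of 0 and overlapped between the genotypes. These are Ube3a, a ubiquitin ligase, Zrsr1, a splicing factor gene that lies inside Commd1, Mkrn3, a ubiquitin ligase linked to the timing of puberty, and Rasgrf1, an exchange factor for Ras. Ube3a lay between 6.22 and 8.44 FPKM over the 6 libraries and Zrsr1 between 7.71 and 10.8 FPKM. Mkrn3 and Rasgrf1 stayed below 0.5 FPKM, and the standard error of Rasgrf1, 1.00, was larger than its log2 fold change of 0.19.

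The 9 genes that were not tested had at most 28 counts in a library. Of the 7 with at least 10 counts over all libraries, 3 (Dlk1, Ascl2 and Rtl1) were apart between the genotypes in CPM, higher in Npr1+/-, where 8.19% of the 2027 untested genes with as many counts were. These values rest on few counts. Dlk1, a Notch-like gene of fetal growth and fat precursors, held that highest count, with 5, 2 and 3 counts in WT and 28, 12 and 6 counts in Npr1+/-. Its FPKM was 0.24, 0.09 and 0.12 in WT and 1.06, 0.49 and 0.23 in Npr1+/-, so the genotypes overlapped in FPKM. Ascl2, a transcription factor gene of the placenta, was at 0.09, 0.08 and 0.04 FPKM in WT and at 0.13, 0.16 and 0.24 FPKM in Npr1+/-. Rtl1, which serves placental vessels, stayed between 0.06 and 0.10 FPKM. Usp29, Dio3, Peg12, Zim1, Phlda2 and Magel2 were at 0.3 FPKM or less in every library, and Magel2 had 1 count, in WT 1. At this depth no difference could be read for these 6 genes.

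By parental class, the 14 tested paternally expressed genes had a median log2 fold change of 0.27, and the 6 tested maternally expressed genes one of 0.03. The median over the 21 tested imprinted genes was 0.11, beside 0.01 over all 13938 tested genes, and without Npr1+/- 1 the median of the paternally expressed genes was 0.06 and that of the imprinted genes 0.00. The summed level of the 20 paternally expressed genes was 159, 159 and 152 FPKM in WT and 205, 226 and 178 FPKM in Npr1+/-, higher in every Npr1+/- library. Without Nnat and Igf2 the remaining 18 summed to 121, 131 and 131 FPKM in WT and to 135, 132 and 131 FPKM in Npr1+/-, where the genotypes came together. The 9 maternally expressed genes summed to 57.8, 64.6 and 59.8 FPKM in WT and to 64.8, 60.5 and 64.1 FPKM in Npr1+/-. Higher Zfp57 thus stood beside higher Igf2, Nnat and Plagl1 and beside other imprinted genes whose genotypes overlapped. No tested imprinted gene was lower in all Npr1+/- libraries. Of all tested genes, 3.9% were higher without overlap in CPM and 3.58% lower. With so small a share lower, its absence among 21 genes is not read as a result.

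Other genes of imprint maintenance, such as DNA methyltransferases, TET enzymes and chromatin proteins, gave no call. Of 26 in the table, 23 were tested, with 0 called by edgeR, 0 at an unadjusted p under 0.05 and 0 called by DESeq2. The shares over all genes were 0%, 2.96% and 0.0942%. The log2 fold change was above 0 in 5 and below 0 in 18, where 51.6% of all tested genes were above 0. The median was -0.11, beside 0.01 over all tested genes, and it was -0.07 without Npr1+/- 1. With the replicate block in edgeR, 2 of the 23 (Atrx and Smchd1, both lower in Npr1+/-) were at an unadjusted p under 0.05, where 12.4% of all tested genes were. The highest were Ctcfl, a germline relative of CTCF, at 0.49 ± 0.38, and Eed, a subunit of the Polycomb complex, at 0.11. The lowest were Tet1, an enzyme that oxidises methylcytosine, at -0.73 ± 0.59, and Smchd1, a protein of chromosome silencing, at -0.29 ± 0.17. Tet1 was at 0.27, 0.37 and 0.39 FPKM in WT and at 0.05, 0.22 and 0.33 FPKM in Npr1+/-. Its log2 fold change was -0.29 without Npr1+/- 1, where it was lowest. Smchd1 was at 6.14, 7.85 and 7.62 FPKM in WT and at 4.65, 6.36 and 6.66 FPKM in Npr1+/-, which overlapped. In CPM, 2 of the 23, Cbx3 and Kdm1b, were lower without overlap, against 3.58% of all tested genes, both chosen for mention after their values were seen.

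Of 40 further imprinted genes in the table, 32 were tested, with 0 called by edgeR, 0 at an unadjusted p under 0.05 and 0 called by DESeq2. The shares over all genes were 0%, 2.96% and 0.0942%. The log2 fold change was above 0 in 14 and below 0 in 18, with a median of -0.03, where 51.6% of all tested genes were above 0. In none of the 32 were the genotypes apart in CPM, where 3.9% of all tested genes were higher so and 3.58% lower. The highest were Kcnq1, a potassium channel gene, at 0.69 ± 0.34 and Zdbf2 at 0.53 ± 0.67, and the lowest were Slc38a4, an amino acid transporter gene, at -1.01 ± 0.48 and Sfmbt2, a Polycomb gene, at -0.72 ± 0.53. Kcnq1 was at 0.54, 0.41 and 0.65 FPKM in WT and at 0.85, 0.94 and 0.66 FPKM in Npr1+/-, apart in FPKM by a narrow margin. Slc38a4 was at 1.01, 1.11 and 0.41 FPKM in WT and at 0.45, 0.33 and 0.54 FPKM in Npr1+/-. The noncoding imprinted RNAs H19 and Meg3 were not analysed here.

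The genes next to Zfp57 on chromosome 17 were compared to see how local its difference was. Of the 10 genes of the table on each side, 9 of 20 were tested. All 9 had log2 fold changes above 0, from 0.09 to 1.63 with a median of 0.16, where 51.6% of all tested genes were above 0. In 7 of them it stayed under 0.5. For Trim26, Rnf39, Znrd1, Znrd1as and Gabbr1 it was smaller than its standard error. Ubd, a ubiquitin-like gene induced by inflammatory cytokines, was at 0.73, 0.14 and 0.52 FPKM in WT and at 1.28, 1.64 and 1.35 FPKM in Npr1+/-, with a log2 fold change of 1.63 ± 0.56. In CPM the genotypes did not overlap for 3 of the 9, Ubd, Trim26 and H2-M3, all higher in Npr1+/-, against 3.9% of all tested genes. Among the neighbours not tested, Trim15 and H2-M2 were also higher without overlap in CPM, on few counts. Of all untested genes with at least 10 counts over the libraries, 8.19% were. In FPKM, Trim26 and H2-M2 overlapped. H2-M9, a class I-like histocompatibility gene at 0.95, 0.19 and 0.30 FPKM in WT and 2.53, 0.43 and 1.23 FPKM in Npr1+/-, overlapped, with a log2 fold change of 1.58 ± 0.83, and was higher in Npr1+/- in every replicate number. The lowest adjusted p among the 9 in edgeR was 0.999, and 1, Ubd, had an unadjusted p under 0.05, against 2.96% of all tested genes. With the replicate block 2 had one, Ubd and H2-M9, against 12.4%.

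**Figure D5:**
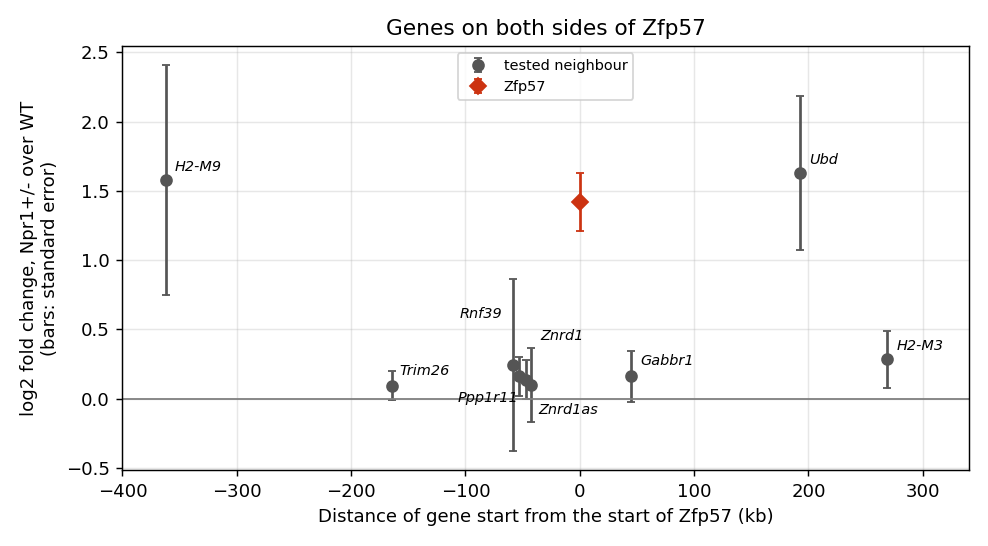
Log2 fold change of Zfp57 and of the 9 tested neighbours, Npr1+/- over WT, against the distance of their starts from that of Zfp57 in kilobases, with standard errors as bars. Zfp57, Ubd and H2-M9 lie above 1, and the other neighbours lie between 0.09 and 0.5.

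Markers of endothelial cells, the cells that line the vessel, summed to 714, 467 and 823 CPM in WT and to 1358, 925 and 873 CPM in Npr1+/-, and 3 of 7 of them (Pecam1, Vwf and Tie1) were higher without overlap in CPM, against 3.9% of all tested genes. The sums were apart between the genotypes by a narrow margin, 873 CPM in Npr1+/- 3 against 823 CPM in WT 3. Pecam1 and Vwf gave 412 and 191 CPM of the sum in Npr1+/- 3, and 399 and 159 CPM in WT 3. Cdh5, Kdr, Tek and Emcn overlapped between the genotypes. Within replicate number 3, Cdh5, Kdr and Tek were lower in Npr1+/-, at CPM ratios of 0.887, 0.863 and 0.799. Pecam1, Vwf, Tie1 and Emcn were higher there. The part of these markers in the differences of Zfp57, Igf2, Nnat and Plagl1 was not tested. Fibroblast markers summed to 5146, 6209 and 4391 CPM in WT and to 2999, 4570 and 4560 CPM in Npr1+/-, with overlap of the sums. Of these, 1 of 7, Col1a1, was lower without overlap in CPM, against 3.58% of all tested genes.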

How the data were processed

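RNA of whole aortas of male mice was sequenced as DNA nanoballs, in 3 WT and 3 Npr1+/- libraries. The authors filtered the reads with SOAPnuke, and the submitters' processing notes name Bowtie2, RSEM and the build mm10. The deposited estimated counts of 18191 genes were not normalized, and the deposited FPKM are scaled for transcript length and library size. Groups came from the sample labels. The authors' means and comparisons of genotypes were not used.

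Counts were rounded to whole numbers and fitted over all genes with edgeR 4.0.16 in R 4.3.3 (TMM, quasi-likelihood test, filter with a minimum count of 10, Benjamini-Hochberg adjustment over 13938 genes). Calls required a log2 fold change of 0.5 or more in size and an adjusted p under 0.05. The fit was tested on simulated counts of independent libraries with the same dispersion for all genes. Those held no outlying library and no replicate structure, so nothing about these libraries is read from that test. FPKM were used for levels and CPM for overlap between genotypes.

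The genes, lists and tests were chosen with earlier results of these data known. Given with every library were Zfp57, Trim28, Zfp445, genes averaging 10 FPKM or more and the 5 tested genes with the highest and the 5 with the lowest log2 fold change; from each other list the 2 highest and 2 lowest were named, and of the neighbours of Zfp57 those past 0.5 in size. Further genes were described so that every one is accounted for. Places of genes and promoter sequences came from RefSeq on GRCm38.p6, and exons under the printed windows were looked up in GENCODE M21. Deviations from the group means correlated at 0.64, 0.39 and 0.24 between samples of the same replicate number, for numbers 1, 2 and 3. Other pairs ran from -0.58 to 0.45, so only number 1 lay above them. The main edgeR fit had no term for the replicate number. The number was used as a block in alternatives and for comparisons within numbers. The alternatives were DESeq2 1.42.0, its size factors, no filter, limma 3.58.1 on log2(FPKM + 0.1) or log2(FPKM + 1), the replicate block and each library left out. DESeq2 with the replicate block was added after seeing the data. Intervals of counting error were not computed, and precision is given by the spread of 3 libraries.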

Additional observations from a re-analysis of the deposited data

How the results depend on the processing

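Zfp57 is left out of these counts, since the list rests on its difference. Of the other genes of the 33, 0 were called in edgeR and in every alternative except DESeq2 with the replicate block. That setting called 2, Igf2 and Nnat. Over all genes DESeq2 called 16 and DESeq2 with the replicate block 265, against 0 in every other setting; the cause was not tested. The edgeR fit with the replicate block called 0 of all genes, and its median log2 fold change of the imprinted genes was 0.09. Over all settings the genes of the other imprinting lists gave 0 calls. Without each library in turn the median of the imprinted genes ranged from 0.00 (without Npr1+/- 1) to 0.22 (without WT 1). Igf2, Nnat and Plagl1 had an unadjusted p under 0.05 in all 15 settings. All settings refit the same libraries, so this is not independent support. The share of all genes placed so was not computed, and nothing further is read from it.

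With 3 libraries a genotype, an exact permutation test could not give a p under 0.1. Leaving out Npr1+/- 1 changed the sign of 9 of the 24 log2 fold changes (Trim28, Ndn, Sgce, Rasgrf1, Nap1l5, Mkrn3, Zrsr1, Cdkn1c and Gatm), and leaving out WT 2 changed 6. Allele use and methylation were not measured.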
